A study of Mus musculus with 24 samples.

Results

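The clustered protocadherins are a family of cell-surface adhesion molecules encoded by 3 gene arrays, Pcdha, Pcdhb and Pcdhg, that lie one after another on mouse chromosome 18. Members were taken as the protein-coding rows of the read-count table whose gene name starts with Pcdha, Pcdhb or Pcdhg and which held at least 48 reads over the 24 libraries. This gave 57 of the 54532 rows: 14 Pcdha, 22 Pcdhb and 21 Pcdhg genes. A further row, Pcdhgb8, is annotated as a polymorphic pseudogene and was left out. It held 2735 reads and was called in none of the comparisons described here.

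Each clustered protocadherin is an isoform with its own set of extracellular cadherin repeats, and isoforms bind the same isoform on a neighbouring cell. A neuron switches on a small, largely random choice of the alternate isoforms, so that the combination on its surface helps its branches tell themselves from those of other neurons. The choice is made at the promoters, with CTCF and cohesin looping a promoter to a distant enhancer and DNA methylation keeping other promoters silent. The C-type isoforms (Pcdhac1, Pcdhac2, Pcdhgc3, Pcdhgc4 and Pcdhgc5) stand at the ends of their arrays and are regulated more uniformly between neurons. A Pcdha or Pcdhg transcript joins 1 large variable exon to constant exons shared across its array, whereas a Pcdhb transcript comes from its own exon and has no constant region.

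The study measured total RNA from the striatum of 1 hemisphere of C57BL/6 mice in 4 genotypes, with 6 libraries in each (3 from males and 3 from females, 1 animal a library). WT animals carried neither change, and TyrobpKO animals lacked Tyrobp, which encodes an adaptor protein of microglial receptors. Q175 animals were heterozygous for the Q175 allele, in which the huntingtin gene Htt holds a lengthened CAG tract by knock-in, as in models of Huntington's disease. Q175_TyrobpKO animals were heterozygous for the Q175 allele and also lacked Tyrobp. Every Q175 carrier was therefore heterozygous, and the Tyrobp deletion was shared by both groups of the comparison between Q175_TyrobpKO and TyrobpKO. The labels used here do not give the age of the animals. The animal numbers of both Tyrobp-deleted genotypes share 1 prefix, while those of Q175 and of 5 of the 6 WT animals have different prefixes. Prefix and genotype can thus be told apart only partly in the comparison of Q175 with WT. They cannot be told apart in TyrobpKO against WT or in Q175_TyrobpKO against Q175.

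The libraries held 25482686 to 34626720 counted reads. Tyrobp read 6.56 to 9.89 CPM (a counts-per-million value on TMM-scaled library sizes) in WT and 5.69 to 11.8 CPM in Q175, against 0.214 to 0.448 CPM in TyrobpKO and 0.218 to 0.323 CPM in Q175_TyrobpKO. The striatal markers Ppp1r1b, Drd1, Drd2 and Adora2a were present in every library, the lowest value being 114 CPM. A set of 5 libraries stood apart by the summed level of 10 choroid plexus markers, which was above 200 CPM in 2 Q175 and 3 Q175_TyrobpKO libraries and reached 4261 CPM. In the other genotypes it stayed between 26.9 and 137 CPM. Counts of called genes without these 5 libraries are given beside the main ones.

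In the GRCm38 coordinates of the table, Pcdha spanned chr18:36930184-37187661, Pcdhb chr18:37264938-37524479 and Pcdhg chr18:37661793-37841873, all on the plus strand. A gap of 77.3 kb separated Pcdha from Pcdhb, and 137 kb lay between Pcdhb22 and Pcdhga1. The arrangement of exons limits what a read can show. The median share of a gene's exonic bases that no other gene overlaps on either strand was 46.4% in Pcdha, 100% in Pcdhb and 54.8% in Pcdhg. Pcdhga10 had no such base (2613 when overlaps on the same strand alone are counted) and 135 reads, and Pcdha4 had 404 such bases and 202 reads. How reads in the constant exons were assigned is not given in the sources used here, and members with near-identical stretches may share reads. Per library, Pcdha held 1423 to 2380 reads, Pcdhb 5256 to 9124 and Pcdhg 9007 to 12048.

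Levels of different genes were compared as CPM per kilobase of exon that no other gene overlaps on either strand, averaged over the 24 libraries. On this scale Pcdhg was the most abundant array, with a median over members of 6.14, against 2.65 for Pcdhb and 1.33 for Pcdha. Of the 10 members with the highest level, 9 belonged to Pcdhg and 1 to Pcdha. Pcdhgc5, a C-type isoform, stood first at 18.2, followed by Pcdhgc3 at 14.6, a C-type isoform known for promoting dendrite branching in cortical neurons. The place of Pcdhgc3 rests on the strand rule: when overlaps on the same strand alone are counted it read 7.89 and stood at rank 5, behind Pcdhga6 at 12.3 and Pcdhgb6 at 11.1. The medians were then 5.61 for Pcdhg, 2.53 for Pcdhb and 1.21 for Pcdha, and the 10 highest members were 8 Pcdhg, 1 Pcdhb and 1 Pcdha genes. Pcdhac2, a C-type isoform known for the tiling of serotonergic axons, was the highest Pcdha gene at 9.64. Pcdha12 was the highest alternate isoform of that array at 3.52. In Pcdhb the order began with Pcdhb9 at 6.30 and Pcdhb20 at 5.42 and ended with Pcdhb1 at 0.126. The lowest Pcdhg gene with unshared bases was Pcdhgb4 at 2.01. The name Pcdha11 is carried by 2 rows: ENSMUSG00000007440 read 1.34 per kilobase, and ENSMUSG00000102206 was the lowest of its array at 0.147. Pcdhgc5 and Pcdhgc3, next to each other in this order of levels, overlapped in range, with 15.7 to 22 for the first and 10.9 to 18.2 for the second over the 24 libraries.

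**Figure D1:**
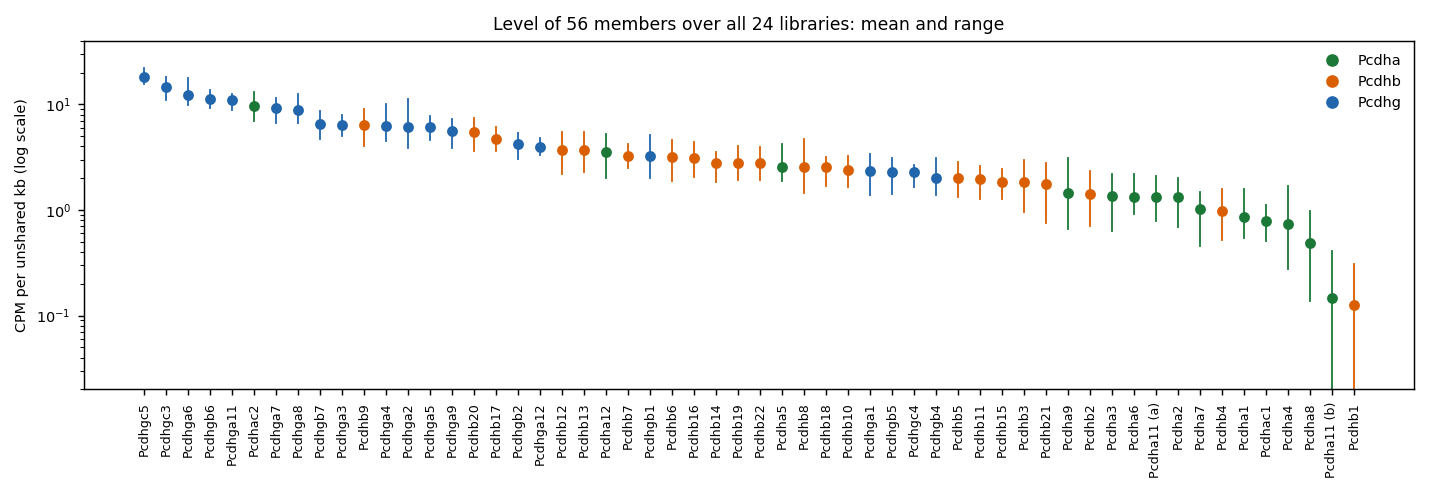
Mean level of 56 members in CPM per kilobase of unshared exon (logarithmic axis), with bars from the lowest to the highest of the 24 libraries; Pcdha11 (a) is ENSMUSG00000007440, (b) is ENSMUSG00000102206, and Pcdhga10 has no unshared base and is not drawn. Pcdhgc5 stands highest at 18.2, and 9 of the 10 highest members belong to Pcdhg.

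The comparison of Q175 with WT asks how a heterozygous Q175 allele changes the family in the striatum. Pcdhb genes were higher in Q175, whereas most Pcdhg and all Pcdha genes were not called. Of 55 members with enough reads to be tested, 18 were called by edgeR's quasi-likelihood test at a Benjamini-Hochberg adjusted p under 0.05, in a background of 9.63% of all 19667 genes tested. In Pcdhb, 13 of 22 members were called higher (background 4.15%) and 1 was called lower (background 5.47%). In Pcdhg, 4 of 20 were called higher and none lower. None of the 13 tested Pcdha genes was called, although 2 had an unadjusted p under 0.05, a level at which the share of all genes is not given. The median log2 fold change was 0.45 over Pcdhb, -0.08 over Pcdhg and 0.02 over Pcdha, beside 0.01 over all genes tested. The sign was positive in 21 of 22 Pcdhb members. Without the 5 libraries of high choroid plexus level, 13 members were called, beside 5.51% of genes, and the Pcdhb median was 0.37. Pcdhb8 and Pcdhgb1 were among the calls lost (edgeR adjusted p = 0.106 and 0.0624). Their log2 fold changes were then -0.37 and 0.46, beside -0.39 and 0.51 with all libraries.

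The same comparison between animals that all lacked Tyrobp used 12 other libraries. In Q175_TyrobpKO against TyrobpKO, 18 of 55 members were called by edgeR, in a background of 5.86% of genes tested. They were again 13 higher (background 2.78%) and 1 lower (background 3.08%) of 22 in Pcdhb, 4 higher of 20 in Pcdhg, and none of 13 in Pcdha. Median log2 fold changes were 0.49 in Pcdhb, 0.05 in Pcdhg and 0.14 in Pcdha, beside 0.00 over all genes. Here 19 of 22 Pcdhb members had a positive sign. Leaving out the libraries of high choroid plexus level, which removes 3 of the 6 Q175_TyrobpKO libraries, left 6 called members (Pcdhb9, Pcdhb16, Pcdhb17, Pcdhb19, Pcdhb20 and Pcdhb22), beside 1.4% of genes, with a Pcdhb median of 0.44. Among the members described here, Pcdhb2, Pcdhb3, Pcdhb21, Pcdhga1, Pcdhga2, Pcdhgb1 and Pcdhga9 then kept log2 fold changes between 0.39 and 0.63 without passing the threshold, and Pcdhb8 gave -0.38.

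The 2 comparisons share no library, though they come from 1 fit and 1 estimate of the spread. Of the 18 members called in each, 16 were called in both (88.9% of either list), all with the same sign. These were Pcdhb2, Pcdhb3, Pcdhb4, Pcdhb8, Pcdhb9, Pcdhb12, Pcdhb13, Pcdhb16, Pcdhb17, Pcdhb19, Pcdhb20, Pcdhb21, Pcdhb22, Pcdhga1, Pcdhga2 and Pcdhgb1. Over all genes, the 783 genes called in both made up 41.4% of the first list and 67.9% of the second. Across the 55 members the log2 fold changes of the 2 comparisons correlated with a Pearson r of 0.79 and a Spearman rho of 0.81, as a description over genes that can share reads. In this edgeR fit Pcdhb5 and Pcdhga4 were called against WT alone, and Pcdhb10 and Pcdhga9 against TyrobpKO alone, and the interaction test called none of these 4 genes. Pcdhb5 and Pcdhb10 are named because of these values.

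**Figure D2:**
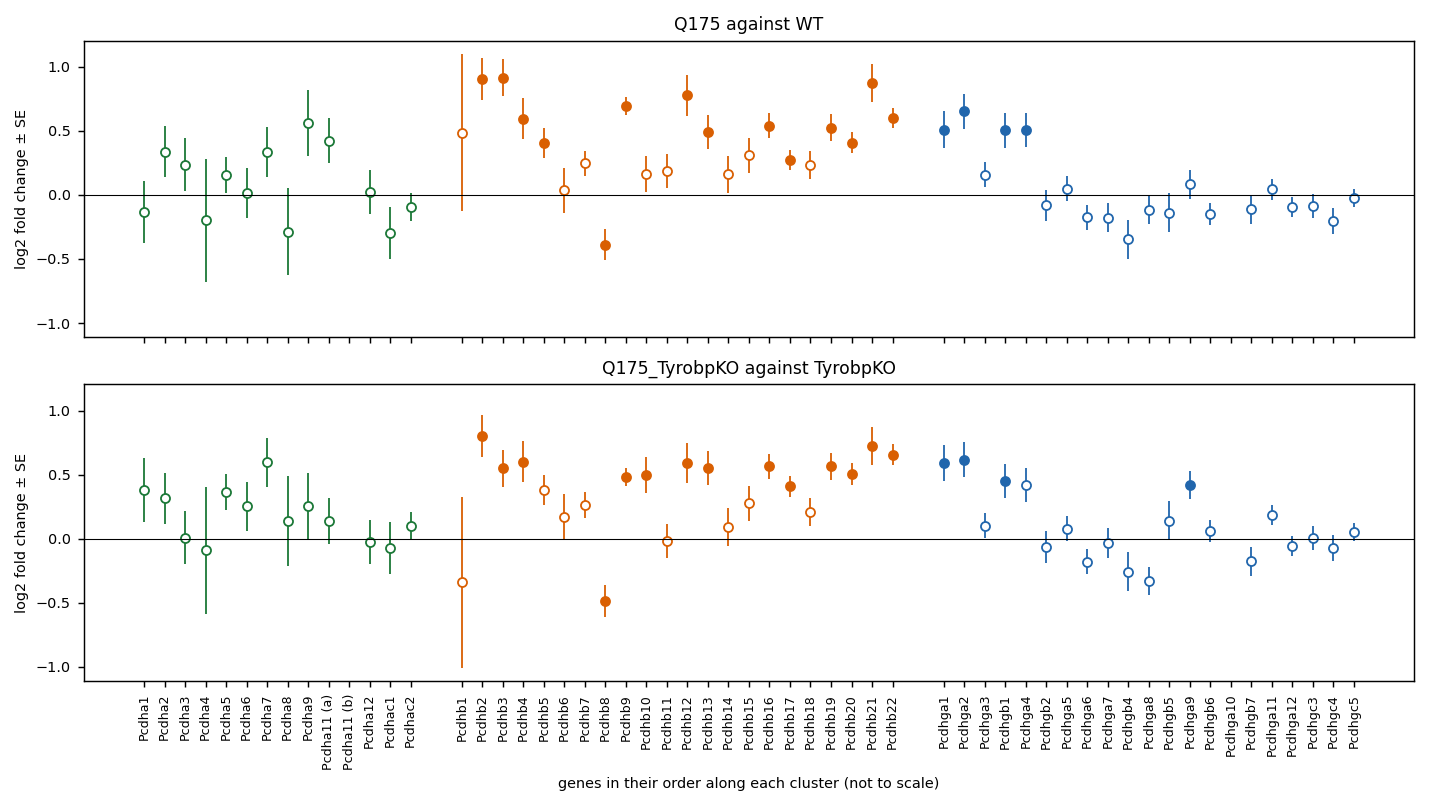
Log2 fold change of each tested member with its standard error, in the order of the genes along Pcdha, Pcdhb and Pcdhg, for Q175 against WT and for Q175_TyrobpKO against TyrobpKO; filled points passed an adjusted p under 0.05, colours mark the arrays, and the untested Pcdha11 (b), ENSMUSG00000102206, and Pcdhga10 have no point. In each comparison 13 of 22 Pcdhb genes are called higher, and the called Pcdhg genes lie mostly at the start of their array.

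All 12 Q175 carriers were also set against all 12 non-carriers, a comparison that reuses the libraries of the other two. It called 25 of 55 members, in a background of 18% of genes tested. Pcdhb gave 17 higher (background 8.85%) and 1 lower (background 9.17%) of 22. Pcdhg gave 5 higher and 1 lower of 20, and Pcdha gave 1 higher of 13, Pcdha7. Median log2 fold changes were 0.42, -0.02 and 0.12 in the same order. Without the libraries of high choroid plexus level 20 members were called, beside 10.2% of genes.

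A separate description asks for groups that do not overlap. In Q175 all 6 libraries lay above all 6 WT libraries for 11 members (9 Pcdhb and 2 Pcdhg), in a background of 1.69% of genes. Between Q175_TyrobpKO and TyrobpKO this held for 10 members (8 Pcdhb, 1 Pcdhg and 1 Pcdha), in a background of 2.22%. No member was lower without overlap in either comparison, where the backgrounds were 2.39% and 2.27%. For 6 members all 12 carriers lay above all 12 non-carriers, in a background of 0.422%: Pcdhb2, Pcdhb9, Pcdhb20, Pcdhb21, Pcdhb22 and Pcdhga2.

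Summed over its 22 members, Pcdhb read 204 CPM in the lowest WT library, 218 at the median and 255 in the highest. Q175 libraries read 266, 284 and 320 CPM for the same 3 points. The groups did not overlap, and the Q175 mean of 289 ± 20.7 CPM (SD, n = 6) was 30.8% above the WT mean of 221 ± 17.6 CPM (SD, n = 6). TyrobpKO libraries ran from 186 through 211 to 245 CPM, and Q175_TyrobpKO libraries from 251 through 271 to 312 CPM. Again there was no overlap, with means of 212 ± 19.1 and 277 ± 27.9 CPM (SD, n = 6 each) and a difference of 30.7%. The 5 Pcdhb genes with the largest CPM difference between carriers and non-carriers (Pcdhb9, Pcdhb19, Pcdhb22, Pcdhb16 and Pcdhb20) made up 51.7% of the net gain of 66.6 CPM. No test is given for a sum over members.

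The sum over Pcdhg did not separate the genotypes: the mean was 394 ± 36.4 CPM for WT and 369 ± 34.3 for TyrobpKO, and 392 ± 20.4 for Q175 and 385 ± 31.3 for Q175_TyrobpKO (SD, n = 6 for each). Pcdha means were 65.3 ± 5.54, 62.4 ± 6.11, 67.6 ± 11.9 and 69.2 ± 7.04 CPM in the same order, and all 4 groups overlapped. The share of Pcdhb in the summed CPM of the family was 35.2 to 40.5% in the 12 carriers, above every one of the 12 non-carriers at 30.4 to 34.5%. Pcdhg made up 54.8 to 60.3% of the family in non-carriers and 50.5 to 53.8% in carriers. In whole tissue, fewer cells of a type and less RNA per cell cannot be told apart, and this holds for each value given here.

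**Figure D3:**
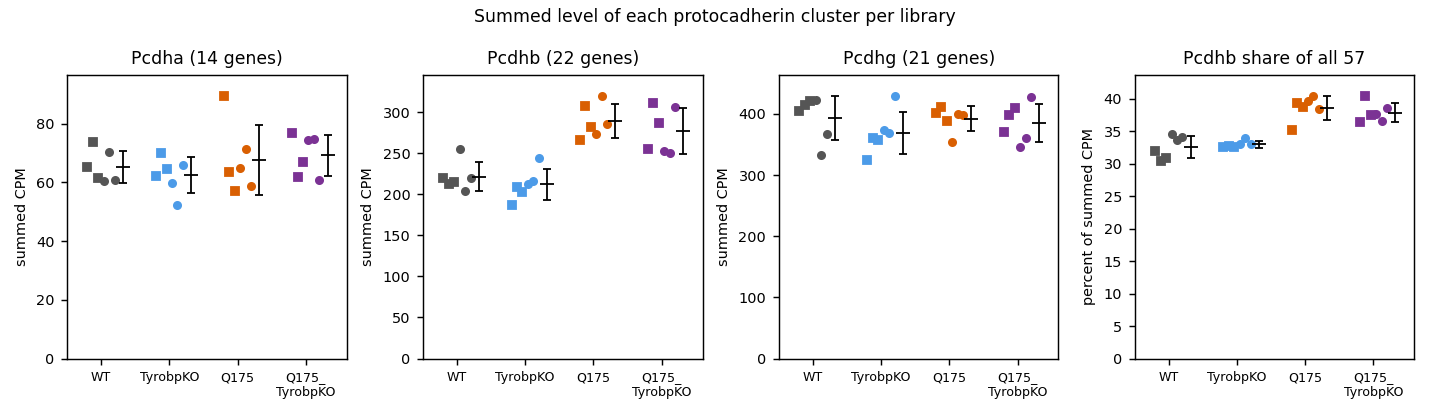
Summed CPM of Pcdha, Pcdhb and Pcdhg, and the percentage of the family's summed CPM in Pcdhb, in each of the 24 libraries by genotype, with squares for males and circles for females and bars for the group mean ± SD. Pcdhb reads 251 to 320 CPM in Q175 carriers, above all libraries of the genotype compared, while the Pcdha and Pcdhg groups overlap.

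Pcdhb9, the Pcdhb isoform of highest level per kilobase, read 12.4, 14.8 and 16.4 CPM in the lowest, median and highest WT library. In Q175 it read 21.6, 23.1 and 27.8 CPM, with no overlap. The log2 fold change was 0.69 ± 0.068 (SE), a 1.62-fold difference (edgeR adjusted p = 7.95e-08). TyrobpKO libraries read 15.1, 16.3 and 16.9 CPM and Q175_TyrobpKO libraries 20.8, 22.4 and 25.4 CPM, again apart, and differed by 0.48 ± 0.0678 on the log2 scale (SE; adjusted p = 4.47e-05 by edgeR). The interaction log2 value for this gene was -0.21, with an unadjusted edgeR p of 0.0348 that did not pass adjustment over all genes (adjusted p = 0.999).

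Pcdhb22, the last Pcdhb gene along the chromosome, read 11.9, 13.1 and 15.4 CPM in WT and 18.8, 19.2 and 22.5 CPM in Q175. Its range was 12 to 15.2 CPM in TyrobpKO and 17.9 to 24.1 CPM in Q175_TyrobpKO. Neither pair of groups overlapped, and the log2 fold changes were 0.60 ± 0.0803 and 0.66 ± 0.0802 (SE; edgeR adjusted p = 1.01e-05 and 5.21e-06). Pcdhb21, whose annotated exons overlap those of Pcdhb22, read 4.80 to 5.99 CPM in WT, 6.94 to 11.5 in Q175, 3.19 to 6.67 in TyrobpKO and 7.08 to 11.8 in Q175_TyrobpKO. It gave log2 fold changes of 0.87 and 0.72 (edgeR adjusted p = 0.000195 and 0.00275). Because the exons overlap, reads of these 2 genes may be split between them.

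Pcdhb2, near the start of the array, had fewer reads and one of the larger fold changes. It read 2.0, 2.80 and 3.98 CPM in WT and 4.26, 5.40 and 6.56 CPM in Q175, and 2.35 to 3.51 CPM in TyrobpKO against 4.16 to 5.81 CPM in Q175_TyrobpKO. The groups did not overlap, and the log2 fold changes were 0.90 and 0.80 (edgeR adjusted p = 0.00049 and 0.003). Its neighbour Pcdhb3 read 3.65 to 7.02 CPM in WT and 8.43 to 11.4 CPM in Q175, a 1.89-fold difference (edgeR adjusted p = 0.000105). In TyrobpKO it read 4.55 to 7.67 CPM and in Q175_TyrobpKO 6.71 to 10.5 CPM, so that these groups overlapped, with a log2 difference of 0.55 (adjusted p = 0.021 by edgeR). That call was lost without TyrobpKO replicate 5 (adjusted p = 0.054) or Q175_TyrobpKO replicate 2 (adjusted p = 0.073).

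Pcdhb16, Pcdhb19 and Pcdhb20 complete the 8 Pcdhb genes with the smallest p in the comparison of all carriers. Pcdhb20 read 16.5 to 18.7 CPM in WT and 18.8 to 26.5 in Q175, and 12.8 to 17.4 in TyrobpKO and 19.5 to 24.6 in Q175_TyrobpKO. The first 2 groups stood just apart, and the log2 fold changes were 0.41 and 0.51 (edgeR adjusted p = 0.00178 and 0.000338). Pcdhb16 gave 0.54 and 0.57, and Pcdhb19 gave 0.52 and 0.56, in the same 2 comparisons. Pcdhb1, whose promoter is described as lacking the sequence element common to most of the family, was the other extreme. It read at most 0.794 CPM in any library, and its log2 fold changes of 0.48 ± 0.613 and -0.34 ± 0.667 (SE) were not called.

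**Figure D4:**
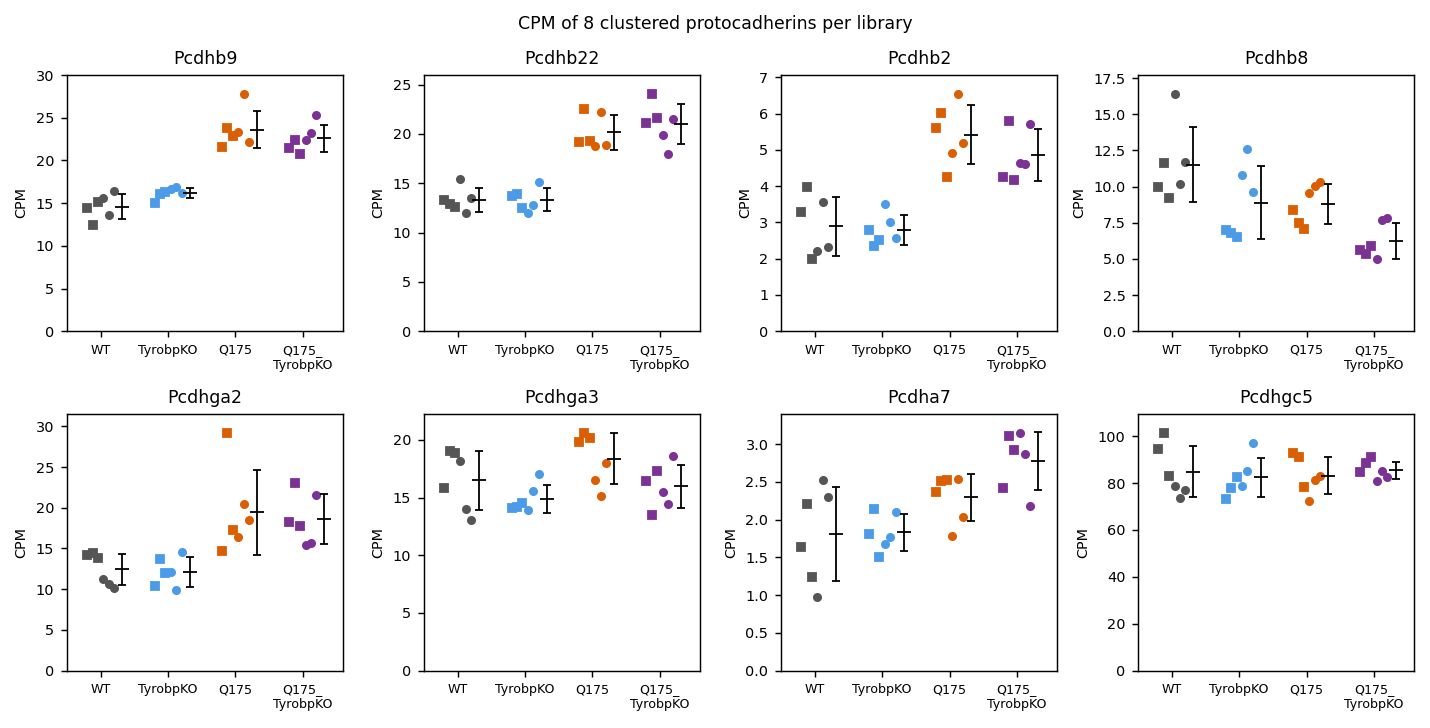
CPM of 8 members in each library by genotype (squares males, circles females, bars mean ± SD). Pcdhb9, Pcdhb22 and Pcdhb2 separate carriers from non-carriers, Pcdhb8 is lower in carriers with overlap, and the groups of Pcdhgc5 overlap.

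Pcdhb8 was the only Pcdhb gene called lower and is named for that reason, after its values were seen. It read 9.19, 10.9 and 16.4 CPM in WT and 7.06, 8.98 and 10.3 CPM in Q175. In TyrobpKO the 3 points were 6.50, 8.30 and 12.6 CPM, and in Q175_TyrobpKO 4.99, 5.76 and 7.84 CPM. Both pairs of groups overlapped, and the log2 fold changes were -0.39 ± 0.12 and -0.49 ± 0.123 (SE; edgeR adjusted p = 0.0372 and 0.0153). The call against WT was lost on leaving out any of 8 single libraries (WT replicates 1, 2 and 4 and Q175 replicates 2 to 6), with adjusted p from 0.058 to 0.131. The call against TyrobpKO was lost without TyrobpKO replicate 5 or Q175_TyrobpKO replicate 4 (adjusted p = 0.066 and 0.051). Both calls were also lost without the sex term, at log2 fold changes of -0.39 and -0.51 (edgeR adjusted p = 0.146 and 0.0673). With the choroid plexus covariate both were lost at -0.30 and -0.42 (edgeR adjusted p = 0.192 and 0.052). The first was lost with limma-voom as well, at -0.37 (adjusted p = 0.0574). Pcdhb8 was also the only member called between the sexes, in a background of 0.0814% of genes, higher in females by a log2 value of 0.42 ± 0.0861 (SE; edgeR adjusted p = 0.0461), and 9 members had an unadjusted p under 0.05. In TyrobpKO the 3 males read 6.50 to 6.97 CPM and the 3 females 9.64 to 12.6 CPM. No member was called in the test of a different Q175 effect between the sexes by edgeR, in a background of 0%, where 4 had an unadjusted p under 0.05. For both tests by sex, the share of all genes with an unadjusted p under 0.05 is not given.

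Within Pcdhg most called genes lay at the Pcdhb-facing end. The array begins with Pcdhga1, Pcdhga2, Pcdhga3, Pcdhgb1 and Pcdhga4, a grouping of 5 genes chosen after their values were seen. These had a median log2 fold change of 0.51 against WT and 0.45 against TyrobpKO, with 4 and 3 of 5 called higher. The other 15 tested Pcdhg genes had medians of -0.11 and -0.03, with 0 and 1 called higher and none called lower. Summed, the 5 genes read 42.5, 50.3 and 56.6 CPM in WT and 57.5, 65.0 and 81.5 CPM in Q175, without overlap (35.7% between means). They read 44.5, 47.9 and 53.2 CPM in TyrobpKO and 53.5, 66.3 and 72.8 CPM in Q175_TyrobpKO, also without overlap (33.1%). The remaining Pcdhg genes summed to 288 to 372 CPM in WT and 296 to 338 CPM in Q175, which overlapped.

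Pcdhga2 had the smallest p in Pcdhg. It read 10.2, 12.5 and 14.4 CPM in WT, 14.6, 17.9 and 29.2 CPM in Q175, 9.91, 12.1 and 14.5 CPM in TyrobpKO and 15.4, 18 and 23.0 CPM in Q175_TyrobpKO. All carriers lay above all non-carriers, with log2 fold changes of 0.65 ± 0.136 and 0.62 ± 0.136 (SE; edgeR adjusted p = 0.00225 and 0.00635). Pcdhga1 gave 0.51 and 0.59 (edgeR adjusted p = 0.0202 and 0.0108), and Pcdhgb1 gave 0.51 and 0.45 (adjusted p = 0.0156 and 0.0446). Pcdhga4, which shares 33.7% of the 50-base words of its large coding exon with Pcdhgb1, gave 0.50 and 0.42 (edgeR adjusted p = 0.0139 and 0.0599). DESeq2 called the second value (adjusted p = 0.0375), as did edgeR on leaving out TyrobpKO replicate 6, Q175 replicate 1 or Q175_TyrobpKO replicate 2 or 5 (adjusted p from 0.033 to 0.0492). Pcdhga3, which lies between Pcdhga2 and Pcdhgb1, gave 0.16 and 0.10 and was not called. Some calls in this group depended on single libraries: against WT, Pcdhga1 was lost without WT replicate 2, Pcdhgb1 without Q175 replicate 5 and Pcdhga4 without Q175 replicate 1 (adjusted p = 0.06, 0.0502 and 0.0504). Against TyrobpKO, Pcdhgb1 was lost on leaving out any of 7 libraries (TyrobpKO replicates 1, 3, 5 and 6 and Q175_TyrobpKO replicates 2, 3 and 6), with adjusted p from 0.060 to 0.125. It was also lost without the sex term (0.46, edgeR adjusted p = 0.053) and on only the 12 libraries compared (0.44, 0.0504). The cortical and choroid plexus covariates gave 0.39 and 0.44 (edgeR adjusted p = 0.0657 and 0.0853).

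Further along the array, Pcdhga9 read 16.1 to 23.7 CPM in WT and 17.0 to 23.1 in Q175, and 13.5 to 21.8 in TyrobpKO and 17.6 to 25.4 in Q175_TyrobpKO. Its log2 fold changes were 0.08 (edgeR adjusted p = 0.727) and 0.42 (adjusted p = 0.0239). The second call was lost on leaving out any of 6 libraries (TyrobpKO replicates 1, 2, 3 and 5 and Q175_TyrobpKO replicates 3 and 6), with adjusted p from 0.0529 to 0.0746. In the main fit Pcdhga8 was called lower only over all carriers, by a log2 value of -0.22 (edgeR adjusted p = 0.0459). It lost that call on leaving out any of 17 of the 24 libraries (adjusted p from 0.0543 to 0.121). Against TyrobpKO the main fit gave -0.33 (edgeR adjusted p = 0.0788). There edgeR called it lower without Q175_TyrobpKO replicate 1 (-0.39, adjusted p = 0.0373) and with the cortical covariate (-0.36, adjusted p = 0.0426). Pcdhgb4 gave -0.30 over all carriers and lay just outside the threshold in edgeR (adjusted p = 0.0504). DESeq2 called it lower (adjusted p = 0.0337), as did edgeR with DESeq2's size factors (0.0486), without the libraries of high choroid plexus level (0.026), with the choroid plexus or cortical covariate (0.0481 and 0.0237), and without any of 6 single libraries (WT replicates 5 and 6, TyrobpKO replicate 4, Q175 replicate 5 and Q175_TyrobpKO replicates 3 and 4; 0.0144 to 0.0445).

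The C-type isoforms were not called in any comparison by edgeR. Pcdhgc5 read 73.9, 81.0 and 101 CPM in WT and 72.4, 82.2 and 93.0 CPM in Q175, and 73.2 to 97.0 CPM in TyrobpKO and 81.1 to 91.0 CPM in Q175_TyrobpKO. The groups overlapped. Over all carriers the log2 fold change was 0.01, with an approximate 95% interval, taken from its SE, of -0.09 to 0.11. Approximate intervals found in the same way were -0.17 to 0.09 for Pcdhgc3, -0.15 to 0.15 for Pcdhac2 and -0.28 to 0.01 for Pcdhgc4. The last is an isoform known to be needed for the survival of interneurons. Pcdhac1 had fewer reads and a wider interval, -0.47 to 0.10.

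Among the alternate Pcdha isoforms, Pcdha7 alone was called by the main edgeR fit, which has no marker covariate, and only over all carriers. It read 0.980, 1.92 and 2.52 CPM in WT, 1.78, 2.44 and 2.54 in Q175, 1.51, 1.79 and 2.14 in TyrobpKO and 2.18, 2.90 and 3.15 in Q175_TyrobpKO. The Tyrobp-deleted groups did not overlap and the other two did. Log2 fold changes were 0.33 against WT and 0.60 against TyrobpKO (edgeR adjusted p = 0.325 and 0.0663). DESeq2 called the second (adjusted p = 0.0317), as did edgeR on only the 12 libraries compared (adjusted p = 0.0312), with the cortical covariate (0.0256) or without WT replicate 4 (0.0343). Over all carriers the value was 0.46 (edgeR adjusted p = 0.0175). That call was lost without the libraries of high choroid plexus level (0.42, adjusted p = 0.128) and with the choroid plexus covariate (0.42, adjusted p = 0.086). Pcdha9 and the Pcdha11 row ENSMUSG00000007440 gave 0.56 ± 0.257 and 0.42 ± 0.178 (SE) against WT, with edgeR adjusted p = 0.187 and 0.141. Pcdha9 passed the threshold against WT without the libraries of high choroid plexus level (0.77, adjusted p = 0.0288) and with the summed cortical marker level as a covariate (0.67, adjusted p = 0.0217). Over all carriers edgeR called Pcdha9 with that covariate (0.56, adjusted p = 0.00521), without those libraries (0.48, 0.047) and without Q175 replicate 3 (0.49, 0.0399). The Pcdha11 row ENSMUSG00000007440 was called over all carriers with the cortical covariate (0.36, edgeR adjusted p = 0.0284).

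Between Tyrobp genotypes, which cannot be told apart from the prefix of the animal numbers, no member passed the threshold in edgeR. In TyrobpKO against WT edgeR called 0 of 55, in a background of 0.117% of genes (0.0458% higher and 0.0712% lower), and 4 members had an unadjusted p under 0.05: Pcdha1 (-0.51), Pcdhb8 (-0.40), Pcdhb9 (0.15) and Pcdhga9 (-0.30, all log2). In Q175_TyrobpKO against Q175 edgeR called 0 of 55, in a background of 0.158% (0.0458% higher and 0.112% lower). An unadjusted p under 0.05 was seen for 2 members, Pcdhb8 and Pcdhga11. DESeq2 called Pcdhb8 in that comparison, at a log2 fold change of -0.50 (adjusted p = 0.0444), where edgeR gave -0.49 (adjusted p = 0.168). The interaction, which asks whether the Q175 difference itself differs with Tyrobp genotype, was called for 0 of 55 members, in a background of 0%, and 2 had an unadjusted p under 0.05, Pcdhb9 and Pcdhga9. These counts do not show that the Q175 difference is the same with and without Tyrobp. Members with an unadjusted p under 0.05 are listed as a description, because the share of all genes at that level is not given.

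Some protocadherins outside the 3 arrays were called as well. Of 13 such genes, 5 were called higher against WT, 4 against TyrobpKO and 6 over all carriers. These are 38.5, 30.8 and 46.2% of the list, beside 4.15, 2.78 and 8.85% of all genes called higher. None was called lower, beside 5.47, 3.08 and 9.17% of all genes. Pcdh19, an adhesion molecule linked to an epilepsy that affects mainly females, read 11.5 to 15.2 CPM in WT and 20.6 to 27.5 CPM in Q175, with log2 fold changes of 0.78 and 0.64 (edgeR adjusted p = 2.93e-07 and 1.33e-05). Pcdh20 gave 1.10 and 1.27, Pcdh10 gave 0.39 and 0.43, and Pcdh11x gave 0.55 and 0.53, all called. The median over the 13 genes was 0.36 against WT and 0.14 against TyrobpKO.

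Of 29 genes for proteins that bind, loop, methylate or silence the arrays, 2 were called higher against WT, 1 against TyrobpKO and 6 over all carriers, and none lower. These are 6.90, 3.45 and 20.7% of the list, beside 4.15, 2.78 and 8.85% of all genes called higher. Ctcf, which encodes the looping factor of the promoters, read 87.7 to 103 CPM in WT and 83.7 to 93.0 CPM in Q175 (log2 fold change -0.07, edgeR adjusted p = 0.423). Smchd1, which encodes a protein that silences these arrays, gave 0.08 (adjusted p = 0.503). The called genes of smallest p were Wiz, which encodes a zinc finger protein, at 0.32 over all carriers, Tet2, an enzyme that oxidises methylated DNA, at 0.24, Rest, a repressor of neuronal genes, at 0.32, and Wapl, which releases cohesin, at 0.13. Their edgeR adjusted p were 3.29e-06, 0.00336, 0.00888 and 0.0257.

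Of 24 listed kinases, proteases, adaptors and adhesion partners described for clustered protocadherins, 23 were tested. Against WT 1 was called higher and 6 lower, 2 higher and 3 lower against TyrobpKO, and 2 higher and 6 lower over all carriers. In either direction these are 30.4, 21.7 and 34.8% of the list, beside 9.63, 5.86 and 18% of all genes. Marcks, a membrane-bound actin-organising protein, rose by a log2 value of 0.30 against WT and 0.42 against TyrobpKO (edgeR adjusted p = 0.00058 and 2.37e-05). Nckap1, Abi1 and Cyfip2, subunits of the WAVE complex that drives actin branching, gave -0.25, -0.24 and -0.23 against WT, all called (edgeR adjusted p = 0.0123, 0.00698 and 0.0294). Abi1 was not called against TyrobpKO. Of the other listed subunits, Abi2 was called lower against WT and against TyrobpKO, Wasf1 was not called, and Cyfip1 was called higher over all carriers.

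Genes that lie among or beside the arrays were counted in the same way. Of 10 tested genes inside the span, none was called higher in any comparison of the Q175 allele, and 0, 1 and 2 were called lower against WT, against TyrobpKO and over all carriers (0, 10 and 20%, beside 5.47, 3.08 and 9.17% of all genes). Taf7, a subunit of the general transcription factor TFIID, lies on the minus strand between Pcdhb and Pcdhg, and gave -0.25 against WT (edgeR adjusted p = 0.15) and -0.43 against TyrobpKO (adjusted p = 0.0162). The noncoding gene 3222401L13Rik, which ends 50 bases before Pcdhga1 on the same strand, was called over all carriers at -0.44 (edgeR adjusted p = 0.00329). Of 41 tested genes outside the span, 2 were called higher and 1 lower against WT, 0 and 1 against TyrobpKO, and 3 and 2 over all carriers (7.32, 2.44 and 12.2% in either direction, beside 9.63, 5.86 and 18% of all genes). Hbegf, which encodes a growth factor of the EGF family, gave -0.61 over all carriers, and Fgf1 gave 0.27 (edgeR adjusted p = 0.000288 and 0.00125).

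Markers of other cell types moved with the Q175 allele. For the counts of markers called lower, the shares over all genes were 5.47% against WT, 3.08% against TyrobpKO and 9.17% over all carriers. The summed level of 15 markers of striatal projection neurons was 7926 to 12433 CPM in WT against 5485 to 7355 in Q175, and 7408 to 12115 in TyrobpKO against 4728 to 7459 in Q175_TyrobpKO, with 11 of 15 called lower against WT and 5 against TyrobpKO. The 10 astrocyte markers summed to 4805 to 5389 CPM in non-carriers and 3869 to 4617 CPM in carriers, with 6 of 10 called lower over all carriers, while Gfap was called higher against WT. Of 10 markers of endothelium and pericytes 6 were called lower over all carriers, with sums of 363 to 430 CPM in non-carriers and 316 to 405 CPM in carriers, and of 10 oligodendrocyte markers 4, with sums of 8780 to 14373 and 7918 to 12037 CPM. The 8 pan-neuronal markers overlapped, at 4919 to 6564 CPM in non-carriers and 4390 to 6424 CPM in carriers. The 10 microglial markers overlapped too, at 311 to 452 and 335 to 469 CPM. All 10 choroid plexus markers were called higher over all carriers, beside 8.85% of all genes. In the separate comparisons 3 of 10 were called higher against WT and 0 against TyrobpKO, beside 4.15 and 2.78% of all genes. Their sum was 40.8 to 77.8 CPM in WT against 38.1 to 4261 in Q175, and 26.9 to 137 in TyrobpKO against 44.1 to 609 in Q175_TyrobpKO. The 10 markers of cortical excitatory neurons ranged widely in every genotype, from 135 to 1070 CPM over the 24 libraries, and none was called. No marker of these lists was at 0 in all libraries, and the part of these cell types in the Pcdhb result was not tested.

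**Figure D5:**
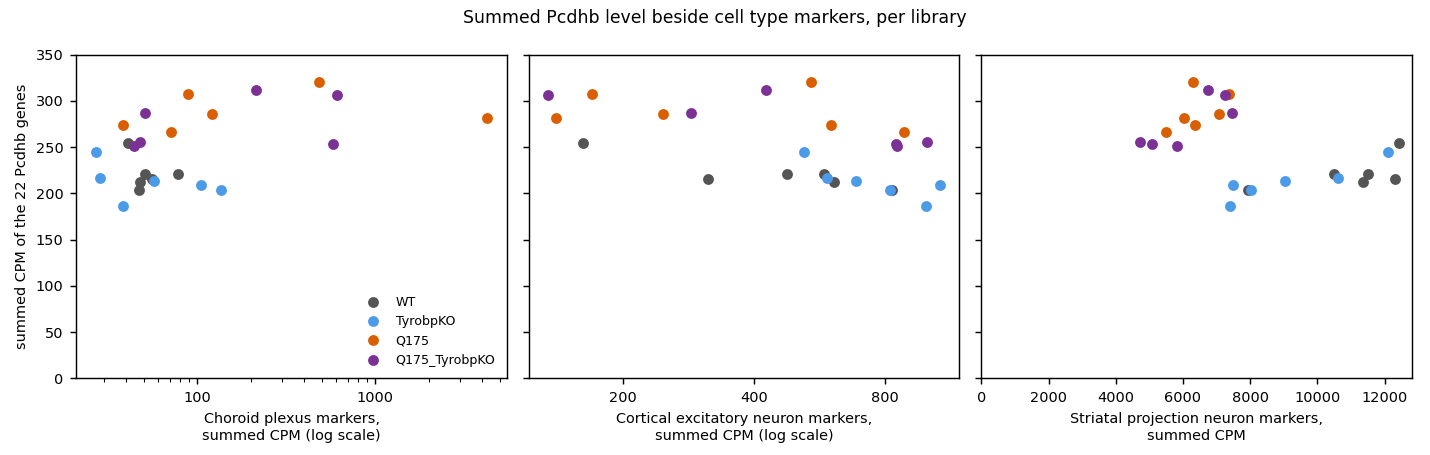
Summed Pcdhb CPM of each library against the summed CPM of choroid plexus, cortical excitatory neuron and striatal projection neuron markers (logarithmic x axes for the first pair, linear for the last), coloured by genotype. The 7 carriers with choroid plexus sums below 200 CPM read at least 251 CPM of Pcdhb, which 1 WT library also reached, and carriers have projection neuron sums of 4728 to 7459 CPM.

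Fitting the summed choroid plexus level as a covariate left 13 members called against WT, 14 against TyrobpKO and 19 over all carriers, beside 6.14, 4.42 and 12.3% of all genes. With the summed cortical level instead, 19, 22 and 29 were called, beside 13.9, 8.83 and 21.6% of all genes. Both fits were chosen after the data were seen.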

How the data were processed

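Read counts per gene were deposited by the submitters for 24 striatal libraries as 1 table. STAR, featureCounts and DESeq2 are named in the submitters' processing notes, with GRCh38, a human build, although the gene identifiers and coordinates of the table are those of mouse GRCm38. Settings for strand and multi-mapped reads were not stated in the labels. The deposited counts were fitted as they stand in R 4.3.3 with edgeR 4.0.16: filterByExpr on genotype (19667 genes kept), TMM scaling, coefficients for the 4 genotypes and for sex over all 24 libraries, and a robust quasi-likelihood test with Benjamini-Hochberg adjustment over all genes tested, called at 0.05. CPM values use TMM-scaled library sizes. Exons that genes share were found from GENCODE release M21. Alternatives used limma 3.58.1 and DESeq2 1.42.0, and tables were made in Python 3.11.15. The fit was checked on simulated counts.

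The members, gene lists and marker lists were chosen with earlier results of these data known. Members named were the 5 C-type isoforms, in each array up to 8 called members of smallest p in the carrier comparison, the 3 of smallest p against WT, and the 2 of highest and 1 of lowest level, with any other named member said to be chosen after its values were seen. From each other list at most 4 called genes were named, plus Ctcf and Smchd1. The other WAVE subunits of the partner list were added after their values were seen. Each library is 1 animal, and the smallest member held 125 reads in all. No sequence is printed.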

Additional observations from a re-analysis of the deposited data

Results flagged for a closer look

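In groups of 6 libraries, the lowest or highest library was set against the range of its group for 30 items (27 members and the 3 array sums, 120 groups in all). In 9 groups it stood apart, and chance alone flags about 1 in 20 groups. The Pcdhb sum of WT replicate 4 was 255 CPM, with the next WT library at 220 CPM. The same library read 16.4 CPM of Pcdhb8 (next 11.7) and 1.73 CPM of Pcdha9, the lowest in WT (next 2.80). Q175 replicate 5, which has a high choroid plexus level, read 27.8 CPM of Pcdhb9 (next 23.8) and 9.13 CPM of Pcdhgb4 (next 6.56). Q175 replicate 4 read 11.4 CPM of Pcdhb3 (next 9.41). TyrobpKO replicate 6 read 21.8 CPM of Pcdhga9 (next 16.4) and 26.1 CPM of Pcdhga8 (next 19.8). Q175_TyrobpKO replicate 6 read 0.690 CPM of Pcdhb1, with the next library at 0.181. Leaving out Q175 replicate 5 changed the members called in Q175 against WT from 18 to 13, in a fit whose share of all genes called is not given.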

How the results depend on the processing

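No paired analysis was possible because the labels give animal numbers that pair no samples, and the replicate numbers used here follow the order of the samples within each genotype. No call reversed its sign under any alternative. Members called with 3 animals of 1 sex a group were 7 (males) and 4 (females) of 55 in Q175 against WT, and 6 and 2 in Q175_TyrobpKO against TyrobpKO. Over all carriers females alone gave 15, against 25. The shares of all genes called in these single-sex fits are not given, so the fall in called members has no background beside it. Without the libraries of high choroid plexus level, 6 were called in Q175_TyrobpKO against TyrobpKO, beside 1.4% of genes. DESeq2 called 1 member in Q175_TyrobpKO against Q175. Females alone gave a Pcdhg median of 0.046 in Q175 against WT, where the value over all libraries was -0.08.

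Leaving out single libraries gave 13 (without Q175 replicate 5) to 18 called members against WT, 12 (without TyrobpKO replicate 5) to 20 against TyrobpKO, 22 to 26 over all carriers, and 0 to 0 in the other comparisons. Pcdhb medians ranged over 0.40 to 0.49, 0.45 to 0.51 and 0.40 to 0.45, Pcdhg medians over -0.09 to -0.03, 0.02 to 0.12 and -0.06 to 0.01, and Pcdha medians over -0.06 to 0.09, 0.08 to 0.26 and 0.07 to 0.17. Counts with DESeq2 were 18, 21 and 26, and with limma-voom 17, 18 and 24. The shares of all genes called in these fits and in those without a single library are not given, so these counts have no background beside them. Called under every alternative other than the single-sex fits were 10 members against WT, 6 against TyrobpKO and 18 over all carriers. Exons shared within an array limit what reads can show for Pcdha and Pcdhg, and the part of read depth in the counts was not tested.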
